A study of Mus musculus with 12 samples.

Results

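The cadherin superfamily outside the clustered protocadherins was examined in the embryonic mouse telencephalon: classical and related cadherins (Cdh followed by a number, without the endothelial Cdh5), unclustered protocadherins (Pcdh followed by a number), Fat1 to Fat4, Dchs1 and Dchs2, and Celsr1 to Celsr3. The rule was applied to gene names and used no measured value, and it found 43 of the 26190 genes in the deposited table. The study was designed to look for differences between male and female embryos in gene expression of the telencephalon, at E11.5, when neural stem cells expand, and at E14.5, when neurogenesis peaks. Whole telencephalons (primordia of cortex and basal ganglia together) of wild-type C57BL/6J embryos were taken from 3 females and 3 males at E14.5 and from 3 females and 3 males at E11.5, 1 library per embryo, with no treatment and no altered allele. In the study's list of mothers, the E14.5 embryos came from 2 mothers and the E11.5 embryos from 3 others, each with as many females as males, so age cannot be told apart from mother and collection. The study's text speaks instead of 2 litters at E11.5, and the list was followed here. Each group of age and sex carries its own prefix of sequence IDs in that list, and the meaning of the prefix is not given. Neither age nor sex within an age can therefore be told apart from that prefix. The comparison made here is E14.5 against E11.5, followed by the comparison of females with males within each age.

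Cadherins are membrane proteins whose extracellular cadherin repeats need calcium to bind partners on neighbouring cells. Classical cadherins link through catenins to actin and hold the adherens junctions at the apical surface of radial glia, and the type II members mark regional subdivisions and axon tracts of the forebrain. Delta protocadherins are adhesion and signalling molecules of neurons, the giant Fat and Dachsous cadherins form a ligand and receptor system that feeds into tissue polarity and the Hippo pathway, and Celsr proteins are the cadherins of the planar cell polarity complex that guides forebrain axon tracts and cilia.

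The sum of gene counts was 17551763 to 28355361 per E14.5 library and 21284326 to 25255006 per E11.5 library. Values of 1 gene across libraries are given as normalized CPM (counts scaled to the library total after TMM normalization), and levels between genes as the authors' FPKM, which also divides by transcript length. The 8 telencephalon markers summed to 1036 to 1587 CPM at E14.5 and 1104 to 1159 CPM at E11.5. The 10 neuronal markers summed to 6307 to 8268 CPM at E14.5 and 1986 to 2405 CPM at E11.5, and all 10 rose. The 8 mesenchyme markers summed to 528 to 754 CPM at E14.5 and 987 to 1254 CPM at E11.5 (7 fell, 1 rose), and the 6 choroid plexus markers to 227 to 669 CPM at E14.5 and 22.4 to 33.8 CPM at E11.5. The 8 radial glia markers summed to 2108 to 2491 CPM at E14.5 and 3087 to 3259 CPM at E11.5 (5 fell, 2 rose and 1 was not called). The 2 that rose were Fabp7 (log2 fold change 0.91) and Slc1a3 (1.45). The sums for erythroid cells were 158 to 523 CPM at E14.5 and 3170 to 5426 CPM at E11.5, and for microglia 35.9 to 55.1 CPM at E14.5 and 26.4 to 29.4 CPM at E11.5. Markers of eye and pigment summed to 17.8 to 20.7 CPM at E14.5 and 10.4 to 13.3 CPM at E11.5, and those of diencephalon to 43.6 to 59.3 CPM at E14.5 and 70.6 to 78.3 CPM at E11.5. Of the 5 diencephalon markers tested, 2 fell, 1 rose and 2 were not called. The part of these cell types in the results that follow was not tested, and in whole tissue fewer cells of a type and less RNA per cell cannot be told apart. Each library is 1 embryo, and p values measure the spread between these embryos.

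Of the 43 genes, 40 reached a mean count of 16 in at least 1 group of 3 and were tested, 32 of them at both ages, 7 at E14.5 alone (Cdh9, Cdh12, Cdh15, Cdh18, Cdh23, Fat2 and Dchs2) and 1 at E11.5 alone (Cdh19). The genes that reached it at 1 age alone entered the test through the age where they were higher, so the filter favoured a call in that direction. Calls needed both a log2 fold change beyond 0.5 in size and an adjusted p below 0.05. At E14.5, 25 of the 40 were higher than at E11.5 (62.5%, against 24.4% of all 14454 genes tested) and 6 were lower (15%, against 19.0% of all genes), and 9 were not called. The median log2 fold change was 0.93 over the 40 genes and -0.01 over all genes. Among genes that reached the minimum count at both ages, 18 of the 32 were higher (56.2%, against 22.1% of 13580 genes) and 5 were lower (15.6%, against 18.4%). The CPM of the ages did not overlap for 31 of the 40 genes (77.5%, against 55.5% of all genes). The 6 that fell were Cdh3, Cdh6, Cdh11, Cdh19, Pcdh18 and Fat1.

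Many of these genes have long transcripts, and long transcripts as a class moved with age. Of the 40 genes, 21 were among the 2866 longest of all genes tested (transcripts of 5278 bases or more, 1 of 5 groups by length), where the median age change was 0.19, against -0.19 in the shortest of the 5 groups. A correction that removes smooth trends with GC content and length in each library moved the median of all genes by -0.12, and corrected values are therefore given relative to that shift. The adjusted p used with them is that of the corrected fit before the shift was taken out. With the correction, 20 of the 25 kept the call higher and all 6 kept the call lower. Cdh4, Cdh15, Fat3, Dchs1 and Celsr1 lost the call, and Cdh22, Pcdh19 and Pcdh12 gained the call lower. Cdh15, at 0.71, lost it through its adjusted p of 0.0842 alone, and Pcdh12 gained it at -0.52, near the minimum. On that scale 23.1% of all genes were called higher and 19.4% lower. Without taking out the shift, 19 of the 40 were higher (against 19.8% of all genes) and 10 were lower (against 25.4%).

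**Figure D1:**
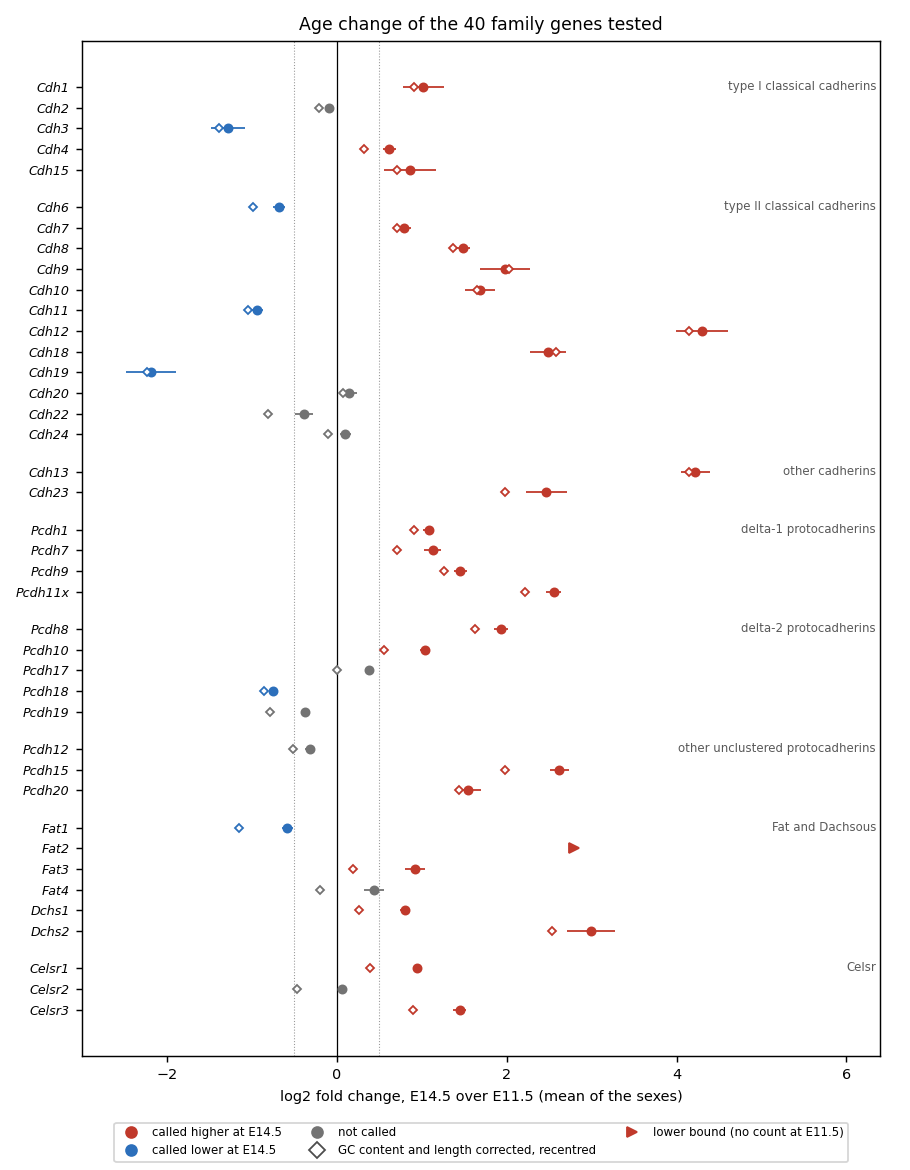
Log2 fold change of E14.5 over E11.5 (horizontal axis) for the 40 genes tested, grouped by subfamily, with bars for 1 standard error. Filled circles are the values as counted, open diamonds the values after the GC content and length correction relative to the shift of all genes, the triangle the lower bound for Fat2, and dotted lines the minimum of 0.5. Cdh12 (4.30) and Cdh13 (4.22) lie farthest right of the circles, and the diamonds of the Fat, Dachsous and Celsr genes lie left of their circles.

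Cdh2 (N-cadherin, the main adherens junction cadherin of neural tissue) was the most abundant member at both ages. It was at 83.7 ± 3.44 FPKM at E14.5 and 92.7 ± 2.57 FPKM at E11.5 (SD, n = 6 libraries each), 24.6% of the summed FPKM of the 43 genes at E14.5 and 31.2% at E11.5. Its CPM ran from 444 to 508 at E14.5 and from 494 to 525 at E11.5, so the ages overlapped, and its log2 fold change of -0.09 (SE 0.04, adjusted p = 0.0312) was not called. At E14.5 the next in order were Dchs1 at 24.0 ± 3.38 FPKM, Celsr2 at 20.6 ± 5.11, Celsr1 at 18.5 ± 5.67, Cdh13 at 17.5 ± 4.08 and Cdh11 at 15.6 ± 2.59 FPKM, and each differed from its neighbour in that order by less than the larger of the 2 SD, while Cdh2 stood far above. At E11.5 they were Cdh11 at 30.9 ± 2.59 FPKM, Celsr2 at 20.1 ± 2.53, Fat1 at 18.9 ± 1.28, Pcdh18 at 17.8 ± 0.37 and Dchs1 at 14.3 ± 1.67 FPKM, where Celsr2, Fat1 and Pcdh18 differed from their neighbours among these 3 by less than the larger SD, and Cdh11 stood above and Dchs1 below them by more. The number of genes with a mean of at least 10 FPKM was 12 at E14.5 and 8 at E11.5. The summed FPKM without Cdh2 was 257 ± 24.3 at E14.5 and 204 ± 12.5 at E11.5.

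**Figure D2:**
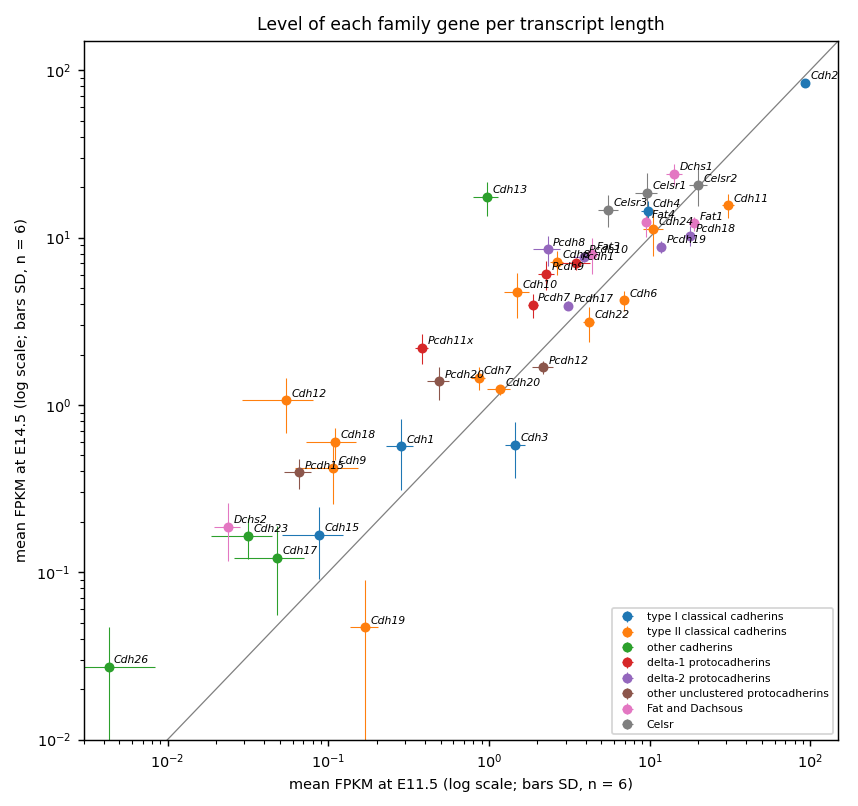
Mean FPKM at E14.5 (vertical axis) against mean FPKM at E11.5 (horizontal axis) for the 41 genes above 0 at both ages, both axes logarithmic, with bars for the SD over 6 libraries and the line of equal levels. Cdh2 lies at the top at both ages, Cdh13 far above the line (17.5 FPKM at E14.5 and 0.969 at E11.5), and Cdh11, Fat1 and Pcdh18 below it.

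Of the other type I classical cadherins, Cdh4 (R-cadherin) rose and Cdh3 (P-cadherin, best known from epithelia) fell. Cdh4 was at 94.6 to 136 CPM at E14.5 (median 116) and 67.6 to 83.4 CPM at E11.5 (median 73.5). The ages did not overlap, with a log2 fold change of 0.62 (SE 0.08, adjusted p = 7.73e-06), but the corrected value of 0.32 is below the minimum. Cdh3 was at 1.87 to 4.58 CPM at E14.5 (median 2.36) and 5.38 to 7.86 CPM at E11.5 (median 7.02), every E14.5 library below every E11.5 library (log2 fold change -1.28, SE 0.20, adjusted p = 5.26e-05). Cdh1 (E-cadherin) lies 0.0464 megabases from Cdh3 on chromosome 8 and was higher at E14.5 (log2 fold change 1.02, adjusted p = 0.00143), at 1.34 to 5.50 CPM at E14.5 and 1.08 to 1.79 CPM at E11.5, with overlap. Taken by sex, its rise was called in males (1.49) and not in females (0.54, adjusted p = 0.166). The 9 markers of epithelium summed to 4.76 to 8.03 CPM at E14.5 and 9.99 to 13.3 CPM at E11.5, with 6 of the 9 too low to be tested and Krt5 at 0 in every E14.5 library. Cdh15 (M-cadherin, of muscle) stayed below 1 CPM in each library and reached the minimum count at E14.5 alone. Its log2 fold change of 0.86 was called at an adjusted p of 0.0186, and 0.0690 was its largest adjusted p with 1 library left out.

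The type II classical cadherins moved in both directions, with 6 of 12 higher at E14.5, 3 lower and 3 not called. Cdh12 was at 4.57 to 11.9 CPM at E14.5 (median 6.53) and 0.182 to 0.538 CPM at E11.5 (median 0.342). The lowest E14.5 library was above the highest E11.5 library, and the log2 fold change was 4.30 (SE 0.31, adjusted p = 2.93e-08), although its E11.5 counts were under the minimum. Cdh10 was at 13.04 to 29.8 CPM at E14.5 (median 20.04) and 4.33 to 7.52 CPM at E11.5 (median 6.08), also without overlap (log2 fold change 1.68, SE 0.18, adjusted p = 2.49e-06). Cdh8, which marks areas of the developing neocortex, was at 35.2 to 57.6 CPM at E14.5 (median 45.7) and 14.5 to 17.55 CPM at E11.5 (median 15.3). It rose by 1.48 on the log2 scale (SE 0.09, adjusted p = 2.52e-09), with the E14.5 libraries all above the E11.5 ones. Cdh7 was higher by a smaller margin, at 6.86 to 10.3 CPM at E14.5 (median 8.12) and 4.41 to 5.48 CPM at E11.5 (median 4.86), with no overlap (log2 fold change 0.79, SE 0.09, adjusted p = 5.97e-07).

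Cdh11 (OB-cadherin, found in mesenchyme and in brain) and Cdh6 (K-cadherin, which marks parts of the early forebrain) fell. Cdh11 was at 75.5 to 123 CPM at E14.5 (median 92.3) and 161 to 194 CPM at E11.5 (median 182), so that the second most abundant cadherin at E11.5 fell by 0.94 on the log2 scale (SE 0.07, adjusted p = 5.51e-08). The 2 ages did not overlap, and Cdh8, which is the next family gene along chromosome 8 with 1 gene between, moved the other way. Cdh6 was at 32.3 to 50.6 CPM at E14.5 (median 41.0) and 61.2 to 69.1 CPM at E11.5 (median 64.8), again without overlap (log2 fold change -0.68, SE 0.07, adjusted p = 9.19e-07). Both fell further after the correction, to -1.05 for Cdh11 and -0.99 for Cdh6. Mesenchyme markers also fell, as given above. Cdh19, known from Schwann cell precursors, was at 0.0445 to 0.624 CPM at E14.5 and 0.637 to 1.08 CPM at E11.5 and was lower at E14.5 (log2 fold change -2.19, adjusted p = 5.98e-06). It reached the minimum count at E11.5 alone. Cdh20, Cdh22 and Cdh24 were not called, with log2 fold changes of 0.14, -0.39 and 0.10. Cdh22 reached -0.82 after the correction, with the call lower.

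**Figure D3:**
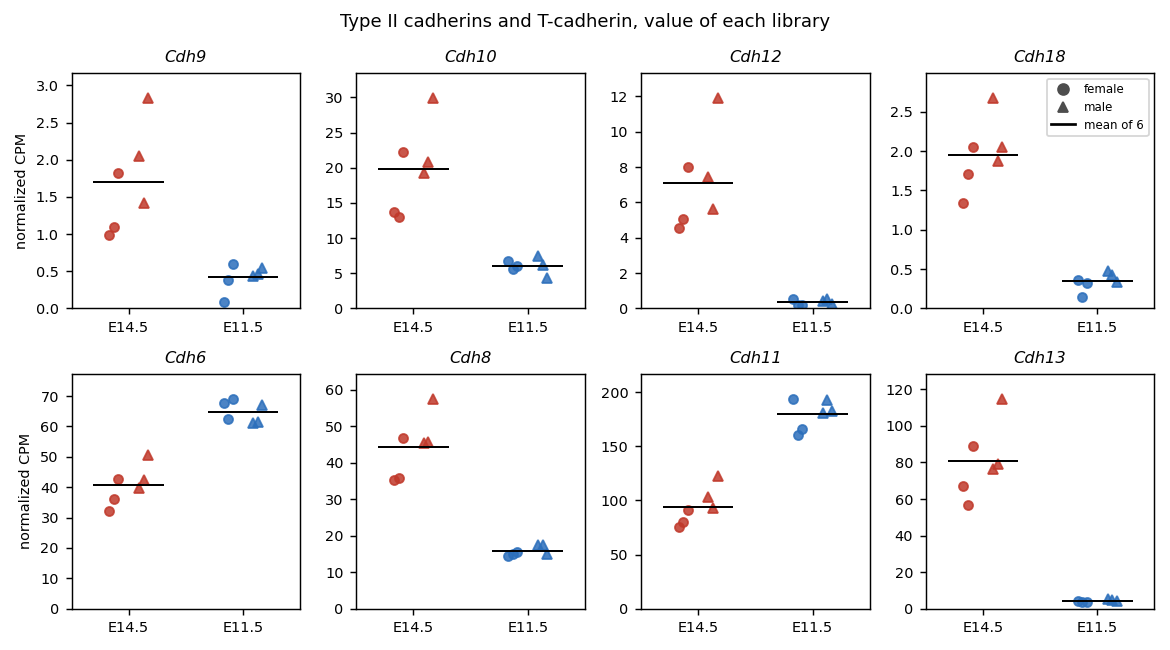
Normalized CPM of each library (vertical axis, from 0) for 7 type II cadherins and Cdh13, E14.5 left of E11.5, circles for females, triangles for males and a line for the mean of 6. Cdh9, Cdh10, Cdh12, Cdh18, Cdh8 and Cdh13 are higher in every E14.5 library, Cdh6 and Cdh11 lower in every one.

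Of the type II genes, 5 stand in a row on chromosome 15 (GRCm38, positions 13028699 to 23474418): Cdh6, Cdh9, Cdh10, Cdh12 and Cdh18, with 0, 1, 2 and 1 other genes of the table between neighbours and gaps of 1.45 to 3.56 megabases. The first in the row fell and the other 4 rose. Of these 4, Cdh9, Cdh12 and Cdh18 reached the minimum count at E14.5 alone, so they entered the test through the age where they were high. Cdh9 was at 0.986 to 2.82 CPM at E14.5 (median 1.62) and 0.0896 to 0.592 CPM at E11.5 (median 0.451), without overlap (log2 fold change 1.98, SE 0.30, adjusted p = 2.18e-05). Cdh18 was at 1.34 to 2.67 CPM at E14.5 (median 1.96) and 0.142 to 0.476 CPM at E11.5 (median 0.347), also without overlap (log2 fold change 2.49, SE 0.21, adjusted p = 4.51e-08). Both stayed under 3 CPM, so their levels rest on few counts at E11.5. The correction left the 4 rises at 1.65 to 4.15 on the log2 scale. Cdh7 and Cdh19 are next to each other on chromosome 1 with no gene of the table between, and moved in opposite directions (0.79 and -2.19).

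The promoter windows of 4 genes of the chromosome 15 row are shown because these neighbours differ in direction, Cdh6 falling and the others rising. The others shown reached the minimum count at E14.5 alone, as given above. Each runs from 250 bases before to 50 bases after the RefSeq start, 5′ to 3′ on the gene's strand (GRCm38.p6), with CG dinucleotides in capitals. The windows are chr15:21111202-21111501 on the plus strand for Cdh12, chr15:23036213-23036512 on the plus strand for Cdh18, chr15:16728665-16728964 on the plus strand for Cdh9 and chr15:13173626-13173925 on the minus strand for Cdh6.
Cdh12: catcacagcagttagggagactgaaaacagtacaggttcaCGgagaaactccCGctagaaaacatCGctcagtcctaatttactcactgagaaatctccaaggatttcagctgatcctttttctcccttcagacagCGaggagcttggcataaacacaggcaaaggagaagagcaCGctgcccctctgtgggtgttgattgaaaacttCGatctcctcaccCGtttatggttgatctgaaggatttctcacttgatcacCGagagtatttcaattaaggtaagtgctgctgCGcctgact
Cdh18: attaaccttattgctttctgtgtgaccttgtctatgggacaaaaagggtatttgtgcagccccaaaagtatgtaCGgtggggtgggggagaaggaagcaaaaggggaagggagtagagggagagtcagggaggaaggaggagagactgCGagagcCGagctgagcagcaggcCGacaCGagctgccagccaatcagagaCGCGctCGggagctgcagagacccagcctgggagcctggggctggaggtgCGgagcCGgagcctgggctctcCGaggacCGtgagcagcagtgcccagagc
Cdh9: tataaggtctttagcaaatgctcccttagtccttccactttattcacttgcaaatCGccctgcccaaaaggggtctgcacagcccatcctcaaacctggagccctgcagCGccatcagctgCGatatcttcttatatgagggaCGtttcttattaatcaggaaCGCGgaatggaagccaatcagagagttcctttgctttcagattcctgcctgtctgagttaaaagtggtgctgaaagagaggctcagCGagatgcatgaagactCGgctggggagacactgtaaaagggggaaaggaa
Cdh6: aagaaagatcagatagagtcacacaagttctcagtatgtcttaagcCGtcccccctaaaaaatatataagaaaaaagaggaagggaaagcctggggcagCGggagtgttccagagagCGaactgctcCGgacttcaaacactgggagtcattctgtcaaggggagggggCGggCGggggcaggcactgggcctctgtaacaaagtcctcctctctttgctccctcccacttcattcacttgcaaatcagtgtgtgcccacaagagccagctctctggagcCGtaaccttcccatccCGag
They hold 9 (Cdh12), 12 (Cdh18), 8 (Cdh9) and 8 (Cdh6) CG dinucleotides. The window of Cdh10, the other gene of the row that rose, holds 2 and is not shown because it lies 1382 bases from the start of the gene in the deposited table. RefSeq gave such a window for 29 of the 43 genes, whose median was 14 CG dinucleotides, against 7 over 27025 promoters of all genes, and 62.1% of the 29 held at least 10, against 43.9% of all. The E-box CAGCTG, which reads the same on both strands, occurred once each in the windows of Cdh9 and Cdh12 and not in those of Cdh6 and Cdh18. It was present in 10.3% of the family's windows and 16.1% of all. Of CAGATG or its complement CATCTG, 6.90% of the family's windows and 17.2% of all held a match.

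Cdh13 (T-cadherin, anchored in the membrane by a lipid and lacking the tail that binds catenins) showed the largest rise among the genes that reached the minimum count at both ages. It was at 56.9 to 115 CPM at E14.5 (median 77.8) and 3.45 to 5.32 CPM at E11.5 (median 4.17). Every E14.5 library was more than 10 times the highest E11.5 one, and the change was 18.7-fold (log2 fold change 4.22, SE 0.17, adjusted p = 6.66e-10), with 4.14 after the correction. Its place in the order of levels was 5 at E14.5 and 27 at E11.5. Cdh23 (a tip link protein of the inner ear hair cell) was at 1.41 to 2.80 CPM at E14.5 and 0.137 to 0.548 CPM at E11.5 (log2 fold change 2.47, adjusted p = 2.04e-07), and it reached the minimum count at E14.5 alone. Its tip link partner Pcdh15 was at 5.52 to 9.42 CPM at E14.5 and 0.865 to 1.49 CPM at E11.5 (log2 fold change 2.62, adjusted p = 2.52e-11). Neither overlapped between the ages. Cdh16, Cdh17 and Cdh26, known from kidney, gut and other epithelia, were not tested. Cdh16 had no count in any library, Cdh17 had 3 to 18 counts at E14.5 and 2 to 6 at E11.5, and Cdh26 had 0 to 4 counts at E14.5 and 0 to 2 at E11.5.

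All 4 delta-1 protocadherins rose, and their summed FPKM was 19.2 ± 2.31 at E14.5 and 8.03 ± 1.03 at E11.5 (SD, n = 6 each). Pcdh11x, an X-linked member, was at 17.5 to 30.7 CPM at E14.5 (median 22.5) and 3.41 to 4.19 CPM at E11.5 (median 3.91), without overlap (log2 fold change 2.55, SE 0.09, adjusted p = 7.26e-12). Pcdh9 was at 32.1 to 57.5 CPM at E14.5 (median 46.3) and 13.5 to 18.2 CPM at E11.5 (median 16.5), with all E14.5 libraries the higher (log2 fold change 1.45, SE 0.08, adjusted p = 4.22e-10). Pcdh7 was at 39.3 to 58.3 CPM at E14.5 (median 44.8) and 19.5 to 23.0 CPM at E11.5 (median 21.8). It rose by 1.13 on the log2 scale (SE 0.10, adjusted p = 4.41e-07), and the ages did not overlap. Pcdh1 was at 29.4 to 37.0 CPM at E14.5 (median 31.6) and 12.1 to 19.5 CPM at E11.5 (median 15.5), again apart (log2 fold change 1.08, SE 0.07, adjusted p = 9.20e-10). With the correction the 4 values were 0.71 (Pcdh7) to 2.22 (Pcdh11x), and all stayed called.

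The delta-2 protocadherins, which bind the WAVE complex that regulates actin, divided, with Pcdh8 and Pcdh10 higher at E14.5, Pcdh18 lower and Pcdh17 and Pcdh19 not called. Their summed FPKM was 39.2 ± 1.67 at E14.5 and 38.9 ± 1.23 at E11.5, a difference smaller than the SD. Pcdh8 was at 31.4 to 52.5 CPM at E14.5 (median 40.8) and 8.10 to 12.5 CPM at E11.5 (median 10.6), without overlap (log2 fold change 1.93, SE 0.08, adjusted p = 3.78e-11). Pcdh10 was at 98.2 to 117 CPM at E14.5 (median 105) and 44.6 to 60.2 CPM at E11.5 (median 50.5), also without overlap. Its log2 fold change of 1.04 (SE 0.06, adjusted p = 9.20e-10) was 0.56 after the correction, just above the minimum. Pcdh18 was at 52.7 to 73.3 CPM at E14.5 (median 63.2) and 101 to 108 CPM at E11.5 (median 105), every E14.5 library lower (log2 fold change -0.75, SE 0.03, adjusted p = 3.73e-11). Pcdh10 and Pcdh18 follow one another on chromosome 3 with 4 genes of the table between, and Pcdh18 was the more abundant of the pair at both ages, at 10.3 FPKM against 7.68 for Pcdh10 at E14.5 and 17.8 against 3.89 at E11.5. Pcdh17 (0.38) and Pcdh19 (-0.37, the gene of a human epilepsy) did not overlap between the ages but were below the minimum of 0.5, and Pcdh19 reached -0.78 and the call lower after the correction.

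Of the remaining protocadherins, Pcdh20 was at 6.19 to 11.4 CPM at E14.5 (median 8.44) and 2.44 to 3.56 CPM at E11.5 (median 2.85), without overlap (log2 fold change 1.55, SE 0.15, adjusted p = 2.41e-07). Pcdh12, a protocadherin of vascular endothelium, was at 9.54 to 12.4 CPM at E14.5 and 11.7 to 16.3 CPM at E11.5 and was not called (log2 fold change -0.32, adjusted p = 9.30e-05). It reached -0.52 and the call lower after the correction. Beside it, Cdh5, the endothelial cadherin outside the family as defined here, had a log2 fold change of -0.497 (adjusted p = 5.07e-05), just within the minimum, and was not called either. The ages of Cdh5 did not overlap (43.9 to 67.1 CPM at E14.5, 70.2 to 84.0 CPM at E11.5). Its corrected value was -0.71 before the shift was taken out. The 8 endothelial markers summed to 234 to 312 CPM at E14.5 and 295 to 338 CPM at E11.5 (1 rose and 7 were not called). Pcdh8, Pcdh17, Pcdh20 and Pcdh9 follow one another on chromosome 14 with 2 or 3 genes of the table between neighbours, and 3 of the 4 rose.

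Among the Fat and Dachsous cadherins, Fat1 fell while Fat3 and Dchs1 rose. Fat1 was at 165 to 236 CPM at E14.5 (median 214) and 293 to 346 CPM at E11.5 (median 302), all E14.5 libraries lower (log2 fold change -0.59, SE 0.07, adjusted p = 2.13e-06), and its corrected value was -1.16. Fat3, which shapes neuronal dendrites in the retina, was at 116 to 242 CPM at E14.5 (median 186) and 83.4 to 105 CPM at E11.5 (median 89.3), without overlap (log2 fold change 0.92, SE 0.12, adjusted p = 3.09e-05). Dchs1, the ligand of Fat4, was at 259 to 365 CPM at E14.5 (median 293) and 152 to 198 CPM at E11.5 (median 174), also without overlap (log2 fold change 0.80, SE 0.05, adjusted p = 1.76e-09). The transcripts of Fat3 (18676 bases) and Dchs1 (10651 bases) are long, and their corrected values of 0.19 and 0.27 were not called. Fat4, the receptor of Dchs1, was at 178 to 296 CPM at E14.5 and 167 to 184 CPM at E11.5, with overlap, and was not called (log2 fold change 0.43, and -0.20 after the correction). Dchs2 was at 1.39 to 4.19 CPM at E14.5 and 0.228 to 0.378 CPM at E11.5 (log2 fold change 2.99, adjusted p = 1.14e-07). Dchs2 and Fat2 reached the minimum count at E14.5 alone. Fat2, known from cerebellar granule cells, had no count in the 6 E11.5 libraries and 0.276 to 1.996 CPM at E14.5, at least 6.90-fold higher when set against a floor of 3 counts per library (0.142 CPM).

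The Celsr genes had a summed FPKM of 53.7 ± 13.7 at E14.5 and 35.3 ± 4.71 at E11.5. Celsr3, which is needed for the major axon tracts of the forebrain, was at 158 to 276 CPM at E14.5 (median 203) and 62.7 to 87.0 CPM at E11.5 (median 76.1). It rose by 1.44 on the log2 scale (SE 0.08, adjusted p = 4.04e-09), without overlap, and by 0.90 after the correction. Celsr1 was at 170 to 324 CPM at E14.5 (median 233) and 102 to 147 CPM at E11.5 (median 122), without overlap (log2 fold change 0.94, SE 0.05, adjusted p = 4.42e-10), but its corrected value of 0.39 was not called. Celsr2 was at 189 to 336 CPM at E14.5 and 204 to 276 CPM at E11.5, with overlap (log2 fold change 0.05, adjusted p = 0.326). Its corrected value turned to -0.47. At E11.5 Celsr2 was the most abundant of the 3 (20.1 ± 2.53 FPKM, against 9.64 ± 1.47 for Celsr1 and 5.55 ± 0.79 for Celsr3), and at E14.5 the 3 lay between 14.7 ± 3.15 FPKM for Celsr3 and 20.6 ± 5.11 FPKM for Celsr2, with overlapping SD.

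The E14.5 libraries varied among themselves in the genes that rose. Of the 25 genes called higher, 13 had their highest E14.5 value in E14.5 male 3, among them Cdh8, Cdh9, Cdh10, Cdh12, Cdh13, Pcdh9 and Pcdh11x, and 7 in E14.5 female 3, among them Pcdh8 and the called Celsr genes. These 2 embryos had the same mother, and the other 4 had another. The share of all genes with their highest value in these libraries was not taken. Over all genes tested, the deviations of these 2 libraries from their group means correlated at 0.560. For the female and male pairs numbered 1 and 2 at E14.5 the correlations were 0.214 and 0.271. The neuronal markers summed to 8268 CPM in E14.5 male 3 and 7743 CPM in E14.5 female 3, against 6307 to 6939 CPM in the other 4. Several other marker lists, though not all, also set these 2 embryos apart, given in the same order. Choroid plexus markers summed to 669 and 520 CPM, against 227 to 407 CPM in the other 4. Microglia markers were at 55.1 and 46.0 CPM, against 35.9 to 42.9 CPM. Radial glia markers were at 2209 and 2108 CPM, against 2385 to 2491 CPM, and erythroid markers at 158 and 233 CPM, against 351 to 523 CPM. The part of these in the gene values was not tested. With each library left out in turn, 25 or 26 of the family genes were called higher and 6 lower.

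Partners of the cadherins did not move as one. The counts of these short lists stand beside 24.4% of all genes tested called higher at E14.5 and 19.0% called lower. Among the 12 catenins and junction adaptors, 11 were tested, 2 rose, 3 fell and 6 were not called (median log2 fold change -0.15), and their sum was 2863 to 3171 CPM at E14.5 and 3080 to 3161 CPM at E11.5, with overlap. The neuronal alpha catenin Ctnna2 was at 193 to 273 CPM at E14.5 and 60.6 to 80.4 CPM at E11.5 (log2 fold change 1.72, adjusted p = 3.58e-11), and the neuronal delta catenin Ctnnd2 at 113 to 138 CPM at E14.5 and 46.6 to 53.5 CPM at E11.5 (1.32, adjusted p = 8.43e-12). The widely expressed alpha catenin Ctnna1 was at 197 to 226 CPM at E14.5 and 325 to 334 CPM at E11.5 and fell (log2 fold change -0.59, adjusted p = 9.12e-10), as did its relative Ctnnal1 (-1.12, adjusted p = 3.20e-10). Ctnna2 was thus in the range of Ctnna1 at E14.5 and below it at E11.5 on the CPM scale, which is not per length. Of 3 nectins tested, none rose and 2 fell, Nectin3 (log2 fold change -1.18, adjusted p = 1.93e-12) and Nectin2 (-0.55, adjusted p = 5.49e-08).

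Of 12 Fat and Hippo pathway genes, none rose and 5 fell, where 24.4% of all genes tested rose and 19.0% fell. Among the 5 was the transcriptional coactivator Yap1, at 77.7 to 112 CPM at E14.5 and 212 to 242 CPM at E11.5 (log2 fold change -1.29, adjusted p = 2.52e-10). Its DNA-binding partners Tead2 (-0.83, adjusted p = 3.78e-09) and Tead1 (-0.62, adjusted p = 5.45e-09) and the scaffold Sav1 (-0.56, adjusted p = 5.79e-09) fell as well. Of 11 core planar cell polarity genes other than Celsr, 2 rose, Ankrd6 (log2 fold change 1.17, adjusted p = 5.38e-11) and Prickle2 (1.19, adjusted p = 1.09e-08), and 1 fell, Vangl1 (-0.56, adjusted p = 9.36e-06). The other 8 were not called, Dvl2 among them (-0.33). None of the 5 genes of cadherin cleavage was called, and the sheddase Adam10 (-0.29, adjusted p = 6.28e-06) stayed within the minimum of 0.5.

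At E14.5, in the comparison of females with males, 4 of the 40 were higher in females (10%, against 5.98% of all genes tested) and 2 were lower (5%, against 5.62%). Celsr1 was at 282 to 324 CPM in E14.5 females and 170 to 183 CPM in E14.5 males, a log2 ratio of 0.78 (adjusted p = 1.77e-06), and Celsr2 at 281 to 336 CPM in E14.5 females and 189 to 217 CPM in E14.5 males (0.61, adjusted p = 1.31e-05). Cdh24, a type II cadherin, was at 43.7 to 47.8 CPM in E14.5 females and 24.5 to 29.7 CPM in E14.5 males (0.78, adjusted p = 1.42e-05). In all 3 the sexes were apart. Cdh15, with 15 to 23 counts in E14.5 females and 4 to 9 in E14.5 males, was also called higher in females (1.11, adjusted p = 0.0295), but lost the call with 1 library left out (largest adjusted p = 0.119). In the same comparison Pcdh15 (-0.56, adjusted p = 0.00211) and the low-level Cdh19 (-2.21, adjusted p = 0.00424) were lower. With the mother as a block in the fit, 10 genes differed at E14.5 (25%, against 12.6% of all genes), and 17 did without E14.5 female 3 (42.5%, against 14.6%) and 11 of 41 without E14.5 male 1 (26.8%, against 11.5%). The telencephalon markers summed to 1416 to 1587 CPM in E14.5 females and 1036 to 1146 CPM in E14.5 males, and 3 of the 8 were called higher in females. Gene counts made up 85.5 to 87.0% of the library total in E14.5 females and 82.3 to 84.1% in E14.5 males. The part of these in the ratios was not tested. At E11.5, Pcdh1 alone was called, at 12.1 to 13.8 CPM in E11.5 females and 17.2 to 19.5 CPM in E11.5 males (log2 ratio -0.51, adjusted p = 0.0159, 1 of 40 or 2.5%, against 0.374% of all genes), and the call was lost without E11.5 female 1 or 3 or without E11.5 male 1 or 2.

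The sexes differed in the age change itself in 10 of the 40 genes, taking an adjusted p below 0.05 alone (25%, against 39.1% of all genes), and in 19 with the mother as a block (47.5%, against 52.1% of all genes). Celsr1 rose by 1.49 on the log2 scale in females and by 0.40 in males, a difference of 1.09 (SE 0.10, adjusted p = 6.22e-06). The sexes of Celsr1 were in the opposite order at E11.5, at 102 to 118 CPM in E11.5 females and 126 to 147 CPM in E11.5 males, though that ratio was below the minimum. Celsr2 differed by 0.88 (adjusted p = 2.18e-05), with age changes of 0.49 in females and -0.38 in males, and Celsr3 by 0.72 (adjusted p = 0.00385), with 1.80 in females and 1.09 in males. Cdh24 differed by 1.04 (adjusted p = 4.30e-05), with 0.62 in females and -0.42 in males. Corrected for GC content and length, without taking out the shift, the age change of Cdh24 was 0.03 in females (adjusted p = 0.748) and -0.49 in males, that of Celsr2 was -0.41 in females and -0.77 in males, and that of Celsr1 was 0.55 in females and 0.00 in males (adjusted p = 0.978). As counted, Dchs1 differed by 0.53 (adjusted p = 0.000934), with 1.06 in females and 0.53 in males, and Pcdh18 by -0.42 (adjusted p = 0.000198), with -0.96 in females and -0.54 in males.

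**Figure D4:**
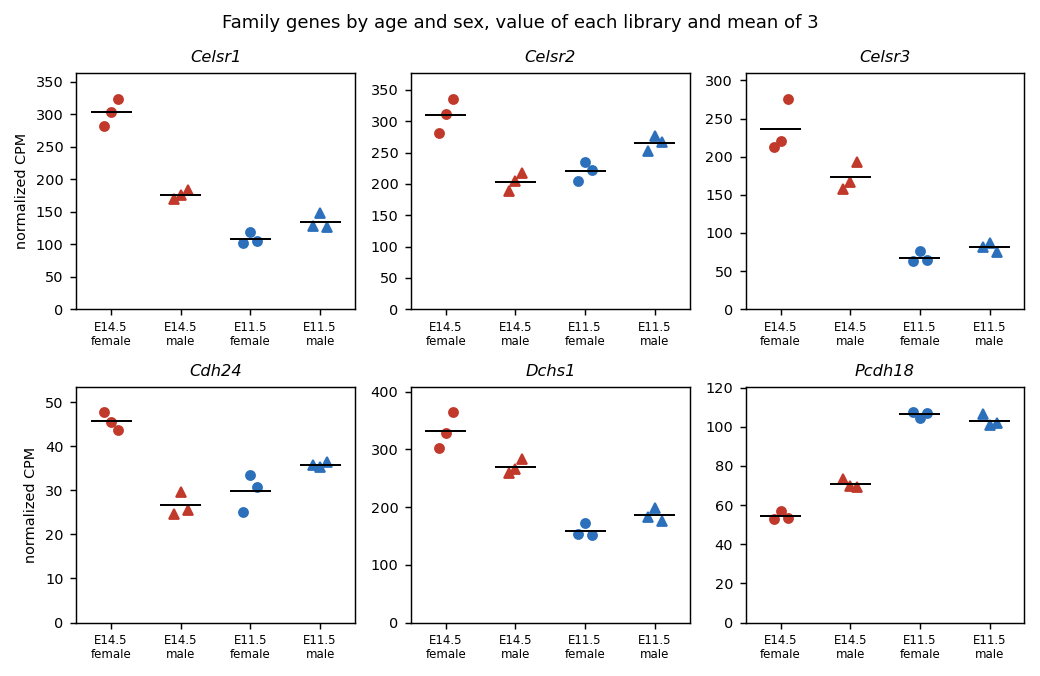
Normalized CPM of each library (vertical axis, from 0) in E14.5 females, E14.5 males, E11.5 females and E11.5 males for 6 genes, with a line for the mean of 3. At E14.5 the females lie above the males for the Celsr genes, Cdh24 and Dchs1 and below them for Pcdh18 (52.7 to 57.1 CPM in females, 69.2 to 73.3 CPM in males).

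The ratio of females to males at E14.5 moved with the GC content of the transcripts. All 10 genes with a GC content of at least 55% had a ratio above 0 (median 0.43), Celsr1, Celsr2, Celsr3, Cdh24, Cdh15, Pcdh8 and Dchs1 among them. Of the 18 with 45 to 55%, 3 did (median -0.21), and of the 12 with less than 45%, 1 did (median -0.48). Over the 40 genes, which share libraries and differ in level, Spearman's rho between GC content and the ratio was 0.73 at E14.5, given as a description, and 0.24 once GC content and length were corrected for. The correction takes out trends with GC content by construction, so the lower rho tests nothing. At E11.5, as counted, rho was -0.14. The same trend ran through all genes, with a median ratio of 0.37 in the highest of 5 groups by GC content and -0.30 in the lowest. With the correction, only Celsr1 (0.51) and Cdh19 (-1.72, adjusted p = 0.0387) of the 6 kept the call at E14.5. Cdh24 (0.42) and Celsr2 (0.34) were below the minimum, and Cdh15 (adjusted p = 0.178) and Pcdh15 (-0.17, adjusted p = 0.405) did not pass the test. The corrected difference in age change was 0.55 for Celsr1 (adjusted p = 0.000533), 0.52 for Cdh24 (adjusted p = 0.0101), 0.36 for Celsr2 (adjusted p = 0.00390) and 0.24 for Celsr3 (adjusted p = 0.0645). Whether the trend with GC content arose in the libraries or in the embryos was not tested. Sex within each age cannot be told apart from the prefix of sequence IDs.

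**Figure D5:**
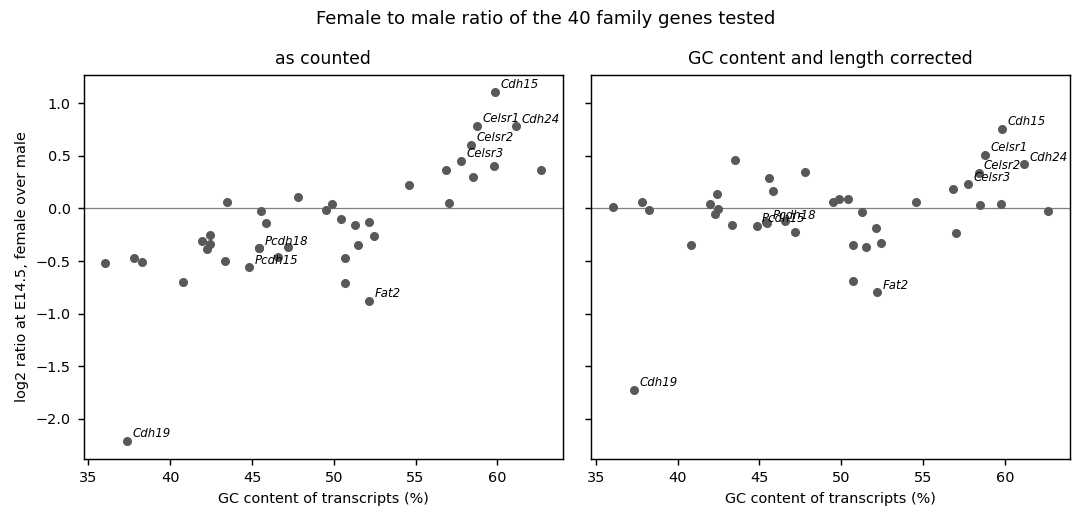
Log2 ratio of females to males at E14.5 (vertical axis) against the GC content of the transcripts in percent (horizontal axis) for the 40 genes tested, as counted on the left and after the correction on the right. The 10 genes of at least 55% all lie above 0 on the left, with Cdh15 highest and Cdh19 lowest in both panels.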

How the data were processed

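Poly(A) RNA of 12 whole telencephalons was sequenced with a stranded kit as 100 bp read pairs. The authors aligned reads with STAR 2.6.0c to GRCm38 and assigned them to genes in Genedata Profiler. How reads matching several genes were shared is not given in the sources used here. The deposited table holds estimated counts of read pairs, not normalized by the authors, of which 82.7% are whole (equal to their rounded value), and FPKM, which the authors made from count, transcript length and library total. All 12 libraries had a column of each, with 3 libraries in each of 4 groups (E14.5 female, E14.5 male, E11.5 female, E11.5 male).

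Counts were rounded and tested in edgeR 4.0.16 (R 4.3.3) by the robust quasi-likelihood test with TMM factors, in 1 fit of the 4 groups with 8 residual degrees of freedom, for the 14454 genes whose mean count reached 16 in some group. P values were adjusted over these genes by the Benjamini-Hochberg method. The age contrast is the mean of the male and the female change. The test of the difference in age change used the adjusted p alone. CPM are scaled by the TMM factors. FPKM served to order genes by level, to give levels and sums at each age without a test, and for the limma alternatives. Gene counts made up 82.3 to 87.0% of the library total behind FPKM at E14.5 and 87.9 to 88.9% at E11.5. FPKM of the 2 ages are therefore not scaled quite alike. The correction fitted a loess surface (span 0.5) on GC content and log2 length in each library and passed it to edgeR as offsets, and a true change that follows either property would be removed by it. GC content was known for 96.8% of genes and all 43 members. Promoter windows are those of RefSeq on GRCm38.p6, taking for each gene the window nearest the start in the table. Floors use 3 counts per library and cover counting error only.

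Members, lists and tests were chosen with earlier results of these data known. Genes described with full statistics were the called members with a mean of at least 1 FPKM at an age, in each subfamily, with up to 4 genes of smallest adjusted p named in each partner list. Named after their values were seen were Cdh1, Cdh9, Cdh15, Cdh18, Cdh19, Cdh23, Pcdh15, Dchs2 and Fat2, which lie under that level, and members that were not called. The marker lists were telencephalon, radial glia, neurons, endothelium, mesenchyme, epithelium, choroid plexus, eye and pigment, diencephalon, erythroid cells and microglia.

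Same-numbered females and males shared a mother at each age in the study's table of mothers, and their deviations from the group means correlated at 0.214, 0.271 and 0.560 at E14.5 and at 0.067, 0.132 and 0.225 at E11.5. Across the ages the numbers pair nothing. Replicate libraries differed by more than sampling noise. The fit was tested on simulated data. Alternatives were DESeq2 1.42.0 (size factors, Wald test), upper quartile scaling, limma 3.58.1 on log2(FPKM + 0.1) and log2(FPKM + 1), other count minimums and thresholds, each sex alone, each library left out, blocks for replicate number and mother, and the correction. Python 3.11.15, pandas 2.3.3 and matplotlib 3.10.9 were used for tables and figures.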

Additional observations from a re-analysis of the deposited data

Results flagged for a closer look

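The age change differed between females and males for 10 family genes in an interaction contrast (edgeR's quasi-likelihood test, adjusted p over 14454 genes, n = 3 embryos per group), each given as the female minus the male log2 change. These were 25% of the 40 family genes tested, a smaller share than the 39.1% of all genes. It was larger in females for Celsr1 (1.09), Cdh24 (1.04), Celsr2 (0.88), Pcdh8 (0.86), Celsr3 (0.72), Pcdh1 (0.56), Dchs1 (0.53) and Pcdh10 (0.32), and lower in females for Cdh19 (-1.95) and Pcdh18 (-0.42). Pcdh8 rose in both sexes, by 2.36 in females and 1.502 in males, and Pcdh1 by 1.36 in females and 0.80 in males. Pcdh10 rose by 1.20 in females and 0.88 in males, with 0.80 in females and 0.08 in males (adjusted p = 0.212) after the GC content and length correction. Of the 8 that were larger in females, 7 have a GC content of at least 55%, and Pcdh10 has 43.5%. With the GC content and length correction Celsr1 (0.55), Cdh24 (0.52), Celsr2 (0.36) and Pcdh10 (0.72) still passed, and Pcdh8 (0.32, adjusted p = 0.217), Pcdh1 (0.15, adjusted p = 0.525) and Cdh19 (-1.42, adjusted p = 0.190) did not, nor did Celsr3, Dchs1 and Pcdh18. Pcdh17, which did not pass as counted (0.09, adjusted p = 0.541), passed with the correction (0.35, adjusted p = 0.00843). Leaving out 1 library at a time gave 8 to 14 genes (19.5 to 35.0% of family genes tested, against 33.9 to 41.7% of all genes). It ended the call of Pcdh10 (largest adjusted p = 0.113) and of Cdh19 (largest adjusted p = 0.0843). Cdh19 rests on 0.0445 to 0.118 CPM in E14.5 females and 0.243 to 0.624 CPM in E14.5 males.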

How the results depend on the processing

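With the GC content and length correction, not recentred, 19 family genes were higher and 10 lower at E14.5, 5 differed between the sexes in their age change, 2 differed at E14.5 and 0 at E11.5, and with the replicate block added these were 10, 5, 3 and 0. For the correction without the block, 19.8% of all genes were higher and 25.4% lower at E14.5. Of all genes, 9.82% then differed between the sexes in age change, 2.52% at E14.5 and 0.242% at E11.5. With GC content corrected alone (chosen after seeing the data) the last 3 were 4, 1 and 0, and with length corrected alone (also chosen after) 10 were lower at E14.5 and 0 differed at E11.5. Celsr2 turned to -0.59 with the correction, -0.59 with the replicate block added and -0.51 with length alone, and the difference of Dchs1 between the sexes in age change turned to -0.00045. The replicate block alone gave 25 higher, 6 lower, 11, 9 and 1. For the last 3 of these, the shares of all genes were 41.4%, 11.8% and 0.457%. The block for the mother gave 19 for the age change (52.1% of all genes) and 10 at E14.5 (12.6% of all genes). Without replicate 3 of both E14.5 sexes 17 differed in age change. Limma on log2(FPKM + 1) gave 17 higher and 5 lower at E14.5, with the age call lost for the low-level Cdh1, Cdh7, Cdh9, Cdh15, Cdh19, Cdh23, Pcdh15, Fat2 and Dchs2, and 3 genes between the sexes at E14.5 and 0 at E11.5. With it 31.4% of all genes were called for age in either direction, 6.14% between the sexes at E14.5 and 0.242% at E11.5. In males alone Cdh4 (0.47), Cdh15 (0.34), Fat1 (-0.45) and Celsr1 (0.40) lost the age call and Cdh22 (-0.63) was called lower. In females alone Cdh1 (0.54) lost it and Cdh24 (0.62) was called higher. By the adjusted p alone 10 were lower, 17 differed at E14.5 and 3 at E11.5, and with a minimum of 1 on the log2 scale 19 were higher and 2 lower, 2 differed at E14.5 and 0 at E11.5. With each library left out in turn, 5 to 17 differed at E14.5 (17 without E14.5 female 3, 11 without E14.5 male 1) and 0 to 1 at E11.5. The shares of all genes were then 9.52 to 14.6% at E14.5 and 0.145 to 0.463% at E11.5. For settings given without a share, moves of the family cannot be told apart from moves of all genes. The cause of these moves was not tested. The 3 libraries per group and at most 2 or 3 mothers per age limit the comparison, and genes under 1 CPM rest on few counts. The age difference cannot be told apart from mother, and neither age nor sex within an age from the prefix of sequence IDs.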
